A study of Mus musculus with 6 samples.

Results

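The genes described here set the pace of the G1 phase of the cell cycle. They are 3 D-type cyclins (Ccnd1, Ccnd2 and Ccnd3), the kinases Cdk4 and Cdk6 that these cyclins switch on, and 5 inhibitors of cyclin-dependent kinases, Cdkn1a, Cdkn1b and Cdkn1c of the Cip/Kip family and Cdkn2b and Cdkn2c of the Ink4 family. They were chosen by name, as 10 of the 18193 genes to which a probe set with a single gene symbol could be assigned. All 10 were measured, by 26 of the 45037 probe sets outside the array controls. For each gene the values are those of the probe set that was brightest on average over all arrays, and its other probe sets are given beside them. No filter on low values was applied.

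Expression was measured on 6 Affymetrix arrays of small intestinal cells sorted for high GFP from Lgr5-EGFP-IRES-creERT2 mice, in which the locus of Lgr5, a marker of crypt base stem cells, also encodes EGFP and CreERT2. There were 3 mice given vehicle (DMSO) and 3 given DBZ, an inhibitor of gamma-secretase, the protease that cuts Notch receptors free of the membrane. Cells were collected at 24 h, 1 mouse per array, and all 6 mice carried this allele. Titles of the arrays gave the groups, although another text field names DMSO for all 6. The labels give neither strain nor age, and their dose unit is not usable. The comparison asks what inhibiting gamma-secretase does to gene expression in these cells.

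D cyclins bind Cdk4 and Cdk6, and the active kinase phosphorylates the retinoblastoma protein and its relatives, so that E2F factors can switch on the genes of S phase. Ink4 proteins bind Cdk4 and Cdk6 themselves and keep cyclin D away, whereas Cip/Kip proteins bind assembled cyclin and kinase complexes, above all those of Cdk2. In the crypt Notch signalling keeps progenitors dividing, and cells that lose it turn into secretory cells that leave the cycle. Ccnd1 is known elsewhere as a direct target of Notch, and the Notch effector Hes1 as a repressor of Cdkn1b and Cdkn1c.

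Array medians lay between 44.9 and 46.3 intensity units. With limma and a Benjamini-Hochberg adjusted p under 0.05, 972 of 18193 genes (5.34%) differed with DBZ, 695 higher (3.82%) and 277 lower (1.52%), and the median log2 difference over all genes was -0.02. The groups did not overlap for 33.2% of genes, 17.3% higher and 15.8% lower. Leaving out vehicle replicate 1, 2 or 3 turned the 972 into 49, 19 or 38, and leaving out DBZ replicate 1, 2 or 3 into 2032, 217 or 352. The actin control read more strongly at its 3' end than at its 5' end, which tracks RNA integrity, with a ratio between 1.61 and 2.22 on vehicle and between 1.51 and 1.57 on DBZ arrays. These ranges did not overlap, and the ratio so moved with every difference given here. The Gapdh control, read the same way, gave 1.05 to 1.09 with DBZ and 1.07 to 1.42 with vehicle, ranges that overlap. Vehicle replicate 1 had the highest ratio of both controls, 2.22 for actin and 1.42 for Gapdh. Vehicle replicates 2 and 3 stood nearer the DBZ arrays, at 1.61 and 1.69 for actin and 1.11 and 1.07 for Gapdh. The part of RNA integrity in the differences was not tested. Lgr5 itself lay between 204 and 271 in all arrays, on cells gated through that gene. Goblet and mesenchymal markers were also present in every array.

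Of the 10 genes 2 rose and 0 fell (limma, adjusted p under 0.05 over all genes), against 3.82% and 1.52% of all genes. Both that rose were D cyclins, Ccnd2 and Ccnd3. Without adjustment 3 of the 10, these cyclins and the inhibitor gene Cdkn2b, had a limma p under 0.05, against 26.3% of all genes. The median log2 difference of the 10 genes was -0.11, with 3 above 0 and 7 below. Neither kinase and none of the 5 inhibitors passed the test. With 10 genes, 2 calls are a small count, and no list test was made.

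**Figure D1:**
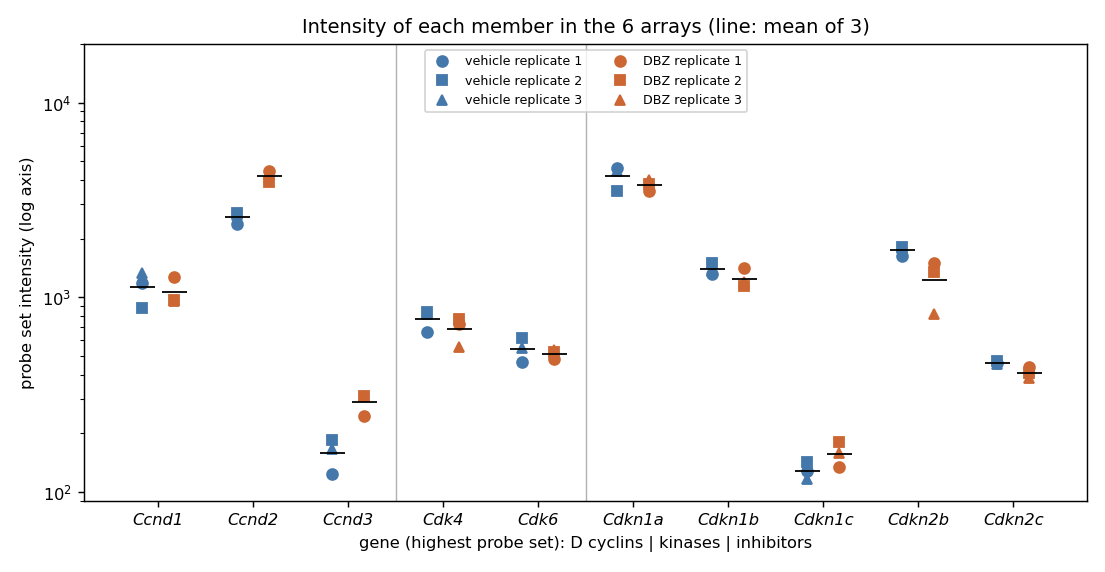
Intensity of the highest probe set of each of the 10 genes on a log axis, with a point for each of 3 vehicle (blue) and 3 DBZ (orange) arrays and a line at each group mean. Ccnd2 and Ccnd3 are higher in every DBZ array than in any vehicle array, Cdkn2b and Cdkn2c lower, and the other 6 genes overlap. Heights of different genes come from different probes and are not comparable.

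Ccnd2, the D cyclin that drives proliferation in several stem and progenitor cells, was the member that rose with the smallest p. Its intensity was 2373, 2718 and 2650 in vehicle replicates 1, 2 and 3. In DBZ replicates 1, 2 and 3 it was 4456, 3922 and 4262. The lowest DBZ array thus lay above the highest vehicle array, and the arrays of each group were close together. The means were 2580 ± 183 and 4213 ± 270 intensity units (SD, n = 3). On the scale of log2(intensity + 16) the difference was 0.70 ± 0.08 (SE), a 1.63-fold rise with a 95% interval from 1.42 to 1.87 (adjusted p = 0.022 by limma). The call ended without any 1 vehicle array (limma, adjusted p = 0.067, 0.080 and 0.077 without replicate 1, 2 and 3) and held without any 1 DBZ array (limma, adjusted p = 0.017, 0.041 and 0.043). In these 6 fits the difference itself stayed between 0.65 and 0.75.

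The array reads Ccnd2 with 7 probe sets, more than any other member. All 7 were higher in DBZ, and in all 7 the groups did not overlap, where 13.8% of all probe sets were higher without overlap. These probe sets share 1 transcript source and are not replicates. Their log2 differences lay between 0.32 and 0.72. In a fit over all 45037 probe sets, of which 1.95% were called in either direction and 1.39% higher, 4 of the 7 passed (limma, Benjamini-Hochberg adjusted p under 0.05). The second highest, 1416122_at, read 2012, 2428 and 2538 in vehicle and 4019, 3533 and 3786 in DBZ arrays. In the DBZ arrays the order was that of the highest probe set, with replicate 1 at the top. The dimmest, 1416124_at, read 81.5, 65.7 and 82.1 against 122.7, 84.5 and 93.7, and its difference of 0.32 ± 0.14 did not pass (SE; limma, adjusted p = 0.25). Leaving out vehicle replicate 1, 2 or 3 left 1, 0 or 0 of the 7 past the test, and leaving out DBZ replicate 1, 2 or 3 left 4, 0 or 0, while all 7 stayed higher in each of these fits. With the replicate number as a block 1 passed.

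**Figure D2:**
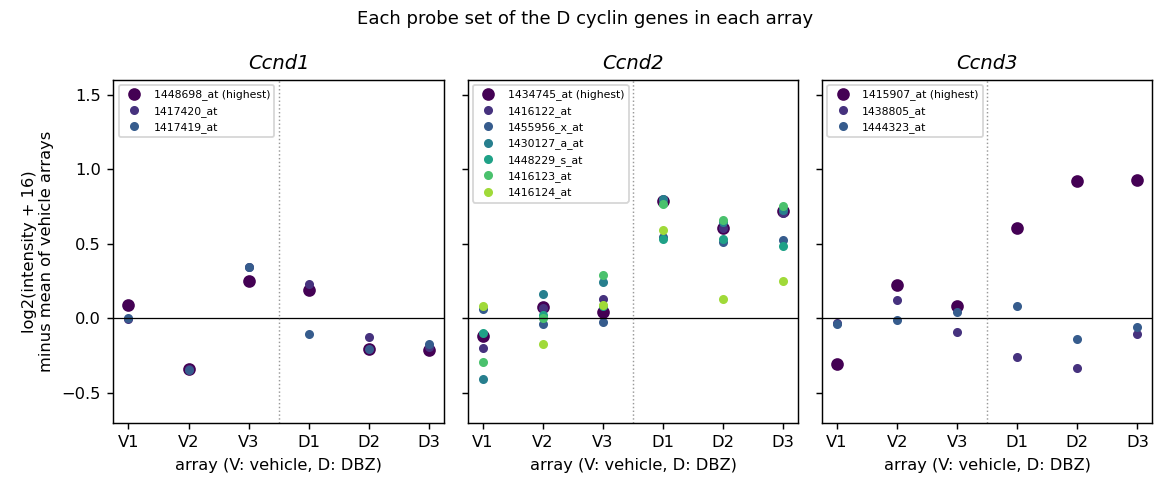
Each probe set of Ccnd1, Ccnd2 and Ccnd3 in each array, as log2(intensity + 16) minus its mean over the vehicle arrays, with vehicle arrays (V1 to V3) left and DBZ arrays (D1 to D3) right of the dotted line. The 7 probe sets of Ccnd2 all rise, those of Ccnd1 scatter around 0 in both groups, and of 3 probe sets of Ccnd3 only the brightest rises.

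Ccnd3, a D cyclin also found in many differentiated cells, rose on its highest probe set. The intensity was 123.0, 184.1 and 165.4 in vehicle and 245.6, 309.2 and 309.7 in DBZ replicates 1, 2 and 3. Every DBZ array was above every vehicle array, and replicate 1 was the lowest of both groups. The means were 158 ± 31.3 and 288 ± 36.9 intensity units (SD, n = 3). The log2 difference was 0.82 ± 0.16 (SE), or 1.76-fold with a 95% interval from 1.35 to 2.31 (adjusted p = 0.047 by limma). The other 2 probe sets did not share this rise. 1438805_at read 55.0, 62.8 and 52.0 in vehicle and 44.6, 41.5 and 51.5 in DBZ arrays, a difference of -0.23 ± 0.09 (SE; limma, adjusted p = 0.20 over all probe sets). 1444323_at lay below the array medians throughout, between 24.1 and 30.6. The mean of the 3 probe sets gave 0.18 and ended the call (limma, adjusted p = 0.19). The call of the highest probe set also ended when vehicle replicate 1, 2 or 3 was left out (limma, adjusted p = 0.096, 0.096 and 0.13), when DBZ replicate 2 or 3 was (limma, adjusted p = 0.12 and 0.099), and in the fit over all probe sets (limma, adjusted p = 0.061).

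**Figure D3:**
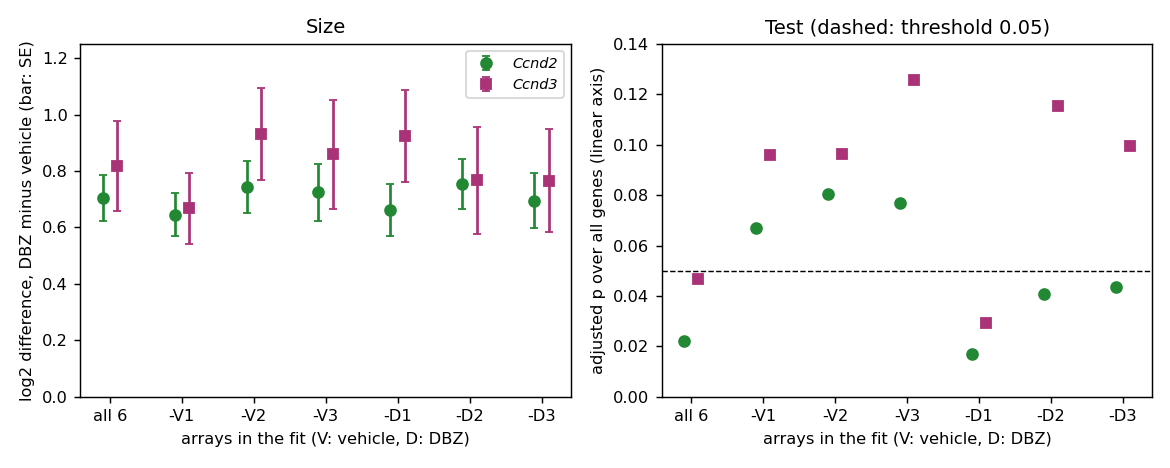
Log2 difference of Ccnd2 and Ccnd3 with its SE (left) and the adjusted p over all genes (right) with all 6 arrays and without each array in turn (V: vehicle, D: DBZ). The sizes stay between 0.65 and 0.93, while the p of Ccnd2 crosses 0.05 without any 1 vehicle array and that of Ccnd3 in 5 of 6 cases.

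RefSeq sequences upstream of the start site (build GRCm38.p6, 250 bases) were found for 7 of the 10 genes, at 10 start sites, and entries for Ccnd1, Ccnd2 and Cdkn1c were not. Those of Ccnd3 are shown because it is the member with a called rise that the table holds, at chr17:47504801-47505050 and chr17:47593217-47593466. That of Cdk4, at chr10:127063285-127063534, is shown because it held most of the motif matches. All 3 lie on the + strand. Capitals mark matches to the motifs searched on both strands.
Ccnd3, start 1: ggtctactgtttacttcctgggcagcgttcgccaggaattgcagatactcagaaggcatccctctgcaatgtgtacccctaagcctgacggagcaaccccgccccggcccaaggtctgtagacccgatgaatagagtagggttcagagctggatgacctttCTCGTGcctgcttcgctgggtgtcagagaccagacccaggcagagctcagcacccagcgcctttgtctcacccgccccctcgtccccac
Ccnd3, start 2: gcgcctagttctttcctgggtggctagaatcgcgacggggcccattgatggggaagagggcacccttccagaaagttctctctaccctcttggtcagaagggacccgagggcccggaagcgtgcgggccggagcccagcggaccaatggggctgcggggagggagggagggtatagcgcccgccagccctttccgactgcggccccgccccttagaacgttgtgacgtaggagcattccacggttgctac
Cdk4: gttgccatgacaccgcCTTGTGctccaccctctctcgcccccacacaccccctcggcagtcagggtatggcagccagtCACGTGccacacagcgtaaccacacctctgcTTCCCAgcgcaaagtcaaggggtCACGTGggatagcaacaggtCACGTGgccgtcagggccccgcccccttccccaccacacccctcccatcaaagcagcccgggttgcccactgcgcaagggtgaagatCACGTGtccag
The motifs were TGGGAA (the core of sites of RBPJ, the DNA-binding partner of Notch), TTTCGCGC and TTTGGCGC (E2F), CACGTG (the E-box bound by Myc and other factors, the same on both strands) and CACNAG (the N-box bound by Hes repressors). TGGGAA occurred at 2 of the 10 start sites, those of Cdk4 and the second of Cdkn1a, and in 21.6% of the 32851 promoters of the table. The N-box letters occurred at 3 of the 10, among them the first start of Ccnd3 at position -89, and in 36.7% of all promoters. Both E2F motifs occurred at 0 of the 10 and in 0.256% and 0.417% of promoters. Cdk4 held 4 copies of CACGTG, a motif found in 6.02% of promoters and in 4 or more copies in 0.021%. None of the matches overlapped another. Myc, whose protein binds such letters, read 308.7, 435.6 and 493.0 in vehicle and 440.1, 353.5 and 420.9 in DBZ arrays. These ranges overlap. A match describes letters and not a bound site.

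Ccnd1 showed no change that this design could detect. It read 1189, 877.6 and 1334 in vehicle and 1277, 968.5 and 961.8 in DBZ arrays, so that the highest and the lowest array were both vehicle arrays. The means were 1133 ± 233 and 1069 ± 180 intensity units (SD, n = 3). The log2 difference was -0.07 ± 0.18 (SE) with a 95% interval of -0.52 to 0.37, which is a fold between 0.696 and 1.30 (adjusted p = 0.84 by limma). The interval leaves room for a moderate change either way, and the sign turned without vehicle replicate 3 (0.052). The other 2 probe sets, at -0.03 and -0.16, kept the order of the vehicle arrays. In the DBZ arrays 1417420_at kept the order as well, while 1417419_at read 201.4, 186.8 and 191.1, close together. The log2 difference of Ccnd2 was thus higher than that of Ccnd1 by 0.78 ± 0.23 (SE), without overlap of the values within arrays. An exact two-sided permutation test gave p = 0.1, the smallest that 3 against 3 arrays allow (adjusted p = 0.40 over 8 pairs of related genes). The log2 difference of Ccnd3 exceeded that of Ccnd1 by 0.89 ± 0.37, with overlap (exact permutation p = 0.20, adjusted p = 0.40), and that of Ccnd2 by 0.11 ± 0.18 (exact permutation p = 0.50, adjusted p = 0.67), a gap whose sign depends on the probe sets and the pseudocount.

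The kinases did not pass the test. Cdk4 read 666.6, 836.9 and 815.3 in vehicle and 730.6, 774.4 and 552.0 in DBZ arrays, where DBZ replicate 3 was the lowest of the 6 and the other DBZ arrays lay within the vehicle range. Its log2 difference was -0.18, with a 95% interval from -0.55 to 0.19 (adjusted p = 0.51 by limma). This value is from 1422441_x_at, and probe sets marked _x_at can bind other transcripts. The others of Cdk4, 1422440_at and 1422439_a_at, stood at -0.02 and -0.31 (limma, adjusted p = 0.97 and 0.39 over all probe sets). Cdk6 read 463.2, 619.8 and 547.9 against 481.6, 521.6 and 537.8, all 3 DBZ arrays within the vehicle range. Its difference was -0.07 with an interval of -0.35 to 0.20 (limma, adjusted p = 0.74), and the sign turned without vehicle replicate 2 (0.026). Of its other probe sets, 1455287_at was lower in every DBZ array, as 14.9% of all probe sets were, at 404.7, 419.0 and 368.7 against 332.4, 352.3 and 338.1, a difference of -0.21 ± 0.06 that did not pass (SE; limma, adjusted p = 0.13 over all probe sets). 1460291_at read 23.6 to 33.0, below the array medians. The within-array difference of Cdk6 and Cdk4 shifted by 0.11 ± 0.18 (SE; exact permutation p = 0.90, adjusted p = 0.90).

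**Figure D4:**
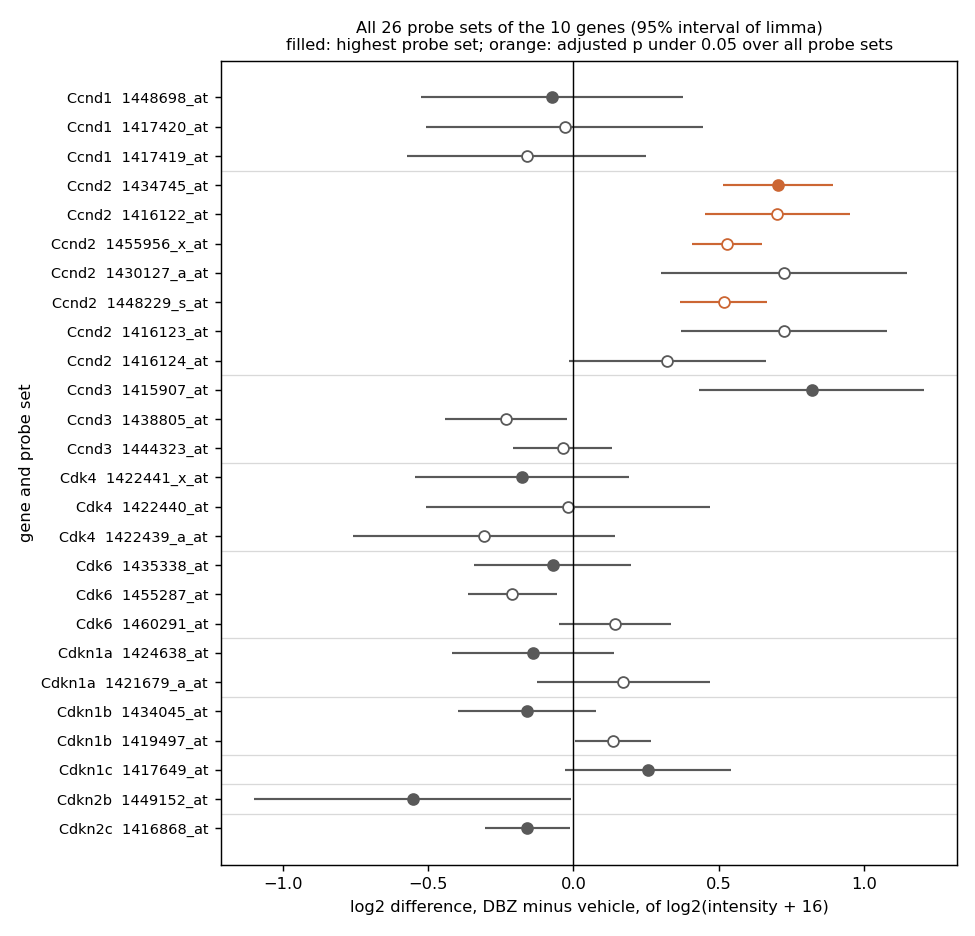
Log2 difference (DBZ minus vehicle) with its 95% interval for all 26 probe sets of the 10 genes, from limma over all probe sets. Filled points are the highest probe set of a gene and orange marks an adjusted p under 0.05. The 4 orange probe sets all belong to Ccnd2.

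Among the Cip/Kip inhibitors, which halt the cycle in many differentiating cells, none of 3 passed. Cdkn1a, the p53-inducible inhibitor p21, read 4609, 3525 and 4429 in vehicle and 3521, 3805 and 4012 in DBZ arrays, with overlap. Its log2 difference was -0.14, with a 95% interval from -0.42 to 0.14 (adjusted p = 0.50 by limma), and its other probe set stood at 0.17, so the sign depends on the probe set. Cdkn1b, the inhibitor p27, read 1315, 1505 and 1361 against 1407, 1136 and 1202, with DBZ replicate 1 inside the vehicle range and the others below it. Its difference was -0.16 with an interval of -0.40 to 0.08 (limma, adjusted p = 0.37). Its other probe set, at 13.1 to 17.9, was among the dim ones, well below the array medians. It stood at 0.14, opposite in sign, and did not pass (limma, adjusted p = 0.21 over all probe sets). This probe set was higher in every DBZ array than in any vehicle array, as 13.8% of all probe sets were. Cdkn1c, the inhibitor p57, read 127.4, 142.2 and 116.2 against 133.5, 179.5 and 158.6, higher than all vehicle arrays in DBZ replicates 2 and 3 only. Its difference was 0.26 with an interval of -0.03 to 0.55 (limma, adjusted p = 0.24), whose upper bound is a 1.46-fold rise. The log2 difference of Cdkn1c, DBZ minus vehicle, was higher than that of Cdkn1b by 0.42 ± 0.21 and than that of Cdkn1a by 0.40 ± 0.21 (SE), with overlap (exact permutation p = 0.20 and 0.30, adjusted p = 0.40 and 0.48). The shift of Cdkn1b against Cdkn1a was -0.02 ± 0.22 (SE; exact permutation p = 0.80, adjusted p = 0.90).

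Both Ink4 inhibitors were lower in every DBZ array than in any vehicle array, as 15.8% of all genes were, and neither passed the test. Cdkn2b, the inhibitor p15 that transforming growth factor beta induces, read 1636, 1812 and 1795 in vehicle and 1508, 1345 and 818 in DBZ arrays. DBZ replicate 3 stood well below the others. The means were 1747 ± 96.7 and 1223 ± 361 (SD, n = 3). On the log2 scale the gap was -0.55 ± 0.22 (SE), with a 95% interval from -1.10 to -0.01 (adjusted p = 0.18 by limma). Without DBZ replicate 3 it was -0.29 ± 0.09 (SE; limma, adjusted p = 0.16), so the size rests in large part on that array. Cdkn2c, the inhibitor p18, read 458.9, 467.6 and 451.7 against 437.9, 407.2 and 385.6, with DBZ replicate 3 again the lowest. The difference was small, at -0.16 ± 0.07 (SE) with an interval of -0.32 to 0.00 (limma, adjusted p = 0.19). Cdkn2b therefore stood further below vehicle than Cdkn2c, by 0.39 ± 0.23 (SE), without overlap (exact permutation p = 0.10, the smallest possible, adjusted p = 0.40). Without DBZ replicate 3 this gap was 0.17. Both genes have 1 probe set. Of the other Ink4 genes, named here as family members outside the naming rule, Cdkn2a read 11.8 to 13.1 in all arrays, well below the array medians, and Cdkn2d between 219.2 and 266.5 in vehicle against 255.7 to 307.8 with DBZ (log2 difference 0.20; limma, adjusted p = 0.29).

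Around these genes, the machinery that carries a cell from G1 into S phase held 1 gene past the test. That is 4% of its list, against 5.34% of all genes. Of 25 listed genes, cyclins E and A, Cdk2, the Cdk-activating kinase, pocket proteins and E2F factors among them, 0 rose and 1 fell, while 12 had an unadjusted limma p under 0.05, against 26.3% of all genes. Their median log2 difference was -0.21 against -0.02 over all genes, and 18 of 25 were below 0. The gene that fell was Rbl1, the pocket protein p107, from 617 ± 29.2 to 441 ± 52.2 intensity units (SD, n = 3), a difference of -0.48 ± 0.10 (SE; limma, Benjamini-Hochberg adjusted p = 0.048). None of 18 genes for the turnover of D cyclins and inhibitors passed, and 6 of them had an unadjusted p under 0.05. Their median was 0.01. Fbxw7, the ubiquitin ligase subunit that marks cyclin E, stood at 0.36 ± 0.10 and Gsk3b, a kinase that marks cyclin D1 for export and decay, at -0.22 ± 0.07 (SE; limma, adjusted p = 0.097 and 0.12). Of 2 measured chaperone genes that fold Cdk4 and Cdk6 none passed (0 with an unadjusted p under 0.05), with Hsp90aa1 at 0.14 ± 0.11 and Cdc37 at 0.14 ± 0.12 (SE).

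Genes that act upstream moved in both directions. Of 19 measured inducers of D cyclins 1 rose and 1 fell (10.5%, against 5.34% of all genes), with a median of 0.08. An unadjusted limma p under 0.05 was found for 8 of them, against 26.3% of all genes. Stat3, the cytokine-activated transcription factor, rose from 966 ± 184 to 1537 ± 104 intensity units, and Notch1 fell from 327 ± 34.6 to 206 ± 31.9 (SD, n = 3; adjusted p = 0.049 and 0.0495 by limma). Of 21 measured regulators of inhibitor genes 3 rose and 1 fell (19%, against 5.34% of all genes), with a median of -0.17. Here 15 had an unadjusted limma p under 0.05, against the same 26.3%. Gfi1 and Atoh1, factors of the secretory lineage, rose by 2.17 ± 0.13 and 1.90 ± 0.16, and Tgfbr2, a receptor for transforming growth factor beta, rose by 0.95 ± 0.19 (SE; limma, adjusted p = 0.0041, 0.0097 and 0.047). Hes1 fell from 387 ± 50.5 to 213 ± 38.0 (SD, n = 3; limma, adjusted p = 0.039). Cdkn1b and Cdkn1c, which Hes1 is known to repress, are given above. Cdkn1c is imprinted, and of 13 measured genes of the imprinted network, itself included, 3 rose and 0 fell with a median of 0.44. The 3 calls are 23.1% of this list, against 5.34% of all genes. In this list 8 had an unadjusted limma p under 0.05, against 26.3%. It shares Dcn, at 0.77, with the fibroblast and smooth muscle markers given below. The 3 that rose were Plagl1, a zinc finger factor, by 0.95 ± 0.11, the receptor gene Igf2r by 0.44 ± 0.07 and the adaptor gene Grb10 by 0.92 ± 0.18 (SE; limma, adjusted p = 0.023, 0.030 and 0.046). The value of Plagl1 depends on its probe set, at -0.029 without the probe sets marked _x_at, which can bind other transcripts. With the mean of all probe sets of a gene, Tgfbr2 stood at 0.29 and Stat3 at 0.31, and both lost their call (limma, adjusted p = 0.055 and 0.094), while Grb10 stood at 0.27 and kept it (limma, adjusted p = 0.048). In that setting the median of the imprinted genes was 0.26 and that of the regulators of inhibitor genes -0.069. The lists held 10 genes past the test besides Ccnd2 and Ccnd3. Leaving out vehicle replicate 1, 2 or 3 turned the 10 into 2, 2 or 1, and leaving out DBZ replicate 1, 2 or 3 into 17, 4 or 4.

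The genes most like Ccnd2 over the 6 arrays, by the root mean square difference of their log2 values centred on their own means among 9095 genes brighter than the median gene, were Olfm1, Oaz2 and Afap1, at 0.057, 0.059 and 0.060. They differed between groups by 0.77, 0.62 and 0.63. Olfm1 read 90.5, 111.5 and 110.0 in vehicle and 191.0, 183.6 and 190.1 in DBZ arrays. Those most like Ccnd3 were Ndn, Khdrbs3 and Snd1, at 0.045, 0.045 and 0.054, with differences of 0.80, 0.82 and 0.73. Ndn read 118.3, 194.7 and 167.6 in vehicle and 237.2, 309.4 and 319.7 in DBZ arrays. All were picked by likeness over these same arrays, so their similar differences and array order follow from the choice.

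Markers of other cell types moved with the rise of Ccnd2 and Ccnd3. In such bulk samples more cells of a type and more RNA per cell cannot be told apart. Over all genes 5.34% passed the test, 3.82% as rises. All 10 fibroblast and smooth muscle markers were higher in DBZ, 6 of them past the test, with a median of 1.00. Their summed intensity lay between 19390 and 28520 on vehicle arrays and between 41720 and 48900 on DBZ arrays. Within the DBZ arrays replicate 1 had the lowest sum, the lowest Ccnd3 and the highest Ccnd2. Within the vehicle arrays replicate 1 had the lowest sum and the lowest Ccnd2 and Ccnd3. Of 8 endothelial markers 3 passed, with sums of 754.5 to 870.1 and 1080 to 1228. Of 4 measured adipocyte markers 3 were higher and 1 passed, with sums of 1312 to 2827 and 4471 to 10570, while Lep stood at -0.03. All 8 goblet markers were higher, 3 past the test, with sums of 108700 to 116600 and 135100 to 166900, and all 8 enteroendocrine markers were higher, 3 past the test, with sums of 2441 to 2853 and 4627 to 11690. Crypt stem cell markers, 8 in all, included 1 that rose and 2 that fell, with sums of 9637 to 12160 and 7806 to 8855. This list includes Olfm4, a stem cell marker known to depend on Notch, which read 3627, 4234 and 5177 in vehicle and 35.9, 18.6 and 29.9 in DBZ arrays. The other 7 markers, a sum made after these values were seen and not tested, summed to 6010 to 7598 in vehicle. This sum was higher with DBZ, at 7776 to 8819, but the markers in it moved in both directions. Slc12a2 made up most of it, with means of 4781 for vehicle and 6401 for DBZ. On the log2 scale Rgmb rose by 0.79, and Slc12a2 and Smoc2 stood at 0.43 and 0.14 without passing. Ascl2 fell, at -1.03 ± 0.13 (SE; limma, adjusted p = 0.025). Cdca7, Axin2 and Lgr5 stood at -0.46, -0.31 and -0.08 without passing. Of 7 neutrophil and macrophage markers 2 passed, both as rises, S100a8 by 4.97 ± 0.74 and S100a9 by 4.82 ± 0.78 (SE, log2). S100a8 was uneven among DBZ arrays, at 1486, 307.8 and 2746. The rest did not pass and did not move as one, with Cd68 at 0.97, Adgre1 at 0.76, Csf3r at 0.37, Lyz2 at 0.06 and Csf1r at -0.34. Of 6 measured Paneth markers 4 were lower, with a median of -0.35, and the 2 that passed were rises, Mmp7 by 1.37 ± 0.23 and Pla2g2a by 2.18 ± 0.39. Ang4 stood at -2.70 ± 0.66 and Mptx1 at -2.25 ± 0.53 without passing (SE; limma, adjusted p = 0.068 and 0.065). Of 5 tuft, 7 enterocyte, 6 lymphocyte and 5 mesothelium markers measured, 0 passed. An unadjusted limma p under 0.05 was found for 3, 3, 0 and 5 of them, against 26.3% of all genes. Higher with DBZ were 4, 0, 1 and 4 of them, and the mesothelium marker that was lower was Krt19, at -0.29. No marker was at 0 in any array. The part of these cell types in the differences of the D cyclins was not tested.

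**Figure D5:**
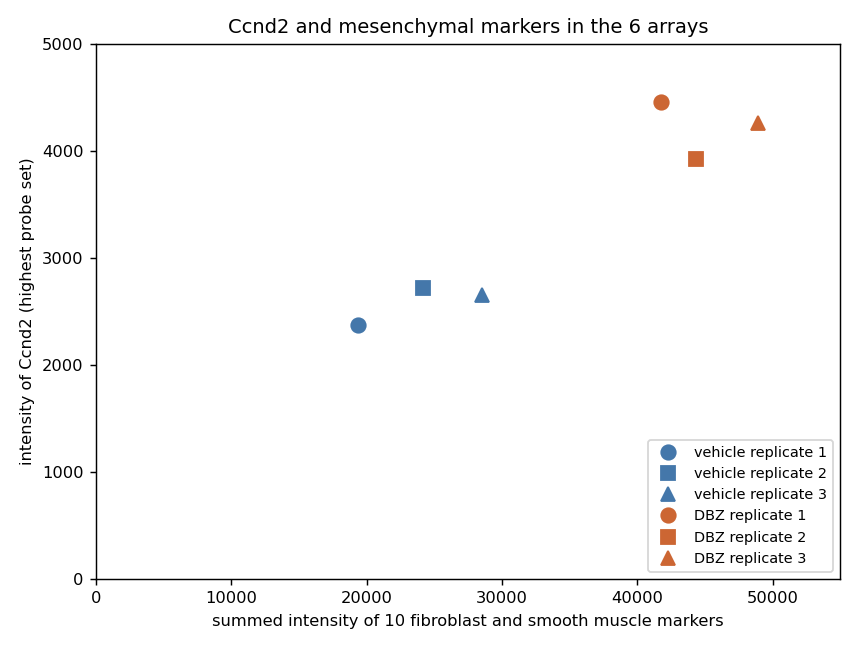
Intensity of Ccnd2 (highest probe set, vertical axis) against the summed intensity of 10 fibroblast and smooth muscle markers (horizontal axis) in the 3 vehicle (blue) and 3 DBZ (orange) arrays, both on linear axes from 0. The groups are apart on both axes, and replicate 1 has the lowest marker sum of either group, with the highest Ccnd2 of the DBZ arrays (4456) and the lowest of the vehicle arrays (2373).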

How the data were processed

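The authors deposited a linear intensity for each probe set, and the 6 arrays share a common level. How they corrected and normalized the intensities is not given in the sources used here. Per the labels' protocols, total RNA was amplified and labelled with a 3' IVT kit. Probe sets were named through the platform's annotation. Among the probe sets of a gene, that with the highest mean log2(intensity + 16) stood for it, and none was filtered.

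The 3 DBZ and 3 vehicle arrays were compared with limma 3.58.1 (R 4.3.3), using lmFit and eBayes as they default. Tests were two-sided, and p was adjusted by Benjamini-Hochberg over 18193 genes, or over 45037 probe sets for the other probe sets. SE is the moderated standard error, and fold changes on this scale understate those of dim genes. The number of arrays limits the precision. Pairs of related genes were tested by exact permutation. The fit was tested on simulated data.

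Genes named beside the members were, per list, those past the test (up to 6), or the 2 with the smallest p, and the 3 most like each of the 2 members with the smallest p. Members and lists were chosen with earlier results of these data known. The alternatives were other normalizations, pseudocounts, filters on dim genes, probe set choices, variance models, weights for arrays, a block for the replicate number, another threshold and leaving out each array.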

Additional observations from a re-analysis of the deposited data

How the results depend on the processing

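Ccnd2 was higher in DBZ in all 19 alternatives (0.60 to 0.75 on the log2 scale; limma, adjusted p = 0.0080 to 0.080) and lost its call in 3, each without a vehicle array. Ccnd3 was higher in all 19 as well (0.18 to 0.93; limma, adjusted p = 0.014 to 0.19) and lost its call in 9. The number of members changed, 2, was 1 after centring on array medians, with a pseudocount of 64, with the mean of all probe sets and in the fit over all probe sets, and 0 to 2 without single arrays.

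The 972 changed genes became 440 with a pseudocount of 64, 1470 among genes above the 25th percentile, 2690 with array weights, 2575 at an adjusted p under 0.1, and 19 to 2032 without single arrays. The 879 changed probe sets became 1863 and 266 with a pseudocount of 1 and 64, 1969 with an intensity trend and robust prior, 4099 with array weights, 3610 at an adjusted p under 0.1, and 1 to 2434 without single arrays. The 10 changed genes of the G1 lists became 6 after centring on array medians, 17 and 4 with a pseudocount of 1 and 64, 19 and 18 above the 25th percentile and the median gene, 18 with the trend and robust prior, 25 with array weights, 24 at an adjusted p under 0.1, and 1 to 17 without single arrays.

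Signs turned for Cdkn1a with the mean of its probe sets (0.016), Plagl1 without _x_at probe sets (-0.029), the median of the D cyclin inducers with array weights (-0.036), Ccnd3 against Ccnd2 with a pseudocount of 64 (-0.021) and the mean of probe sets (-0.42), and Cdk6 against Cdk4 without _x_at probe sets (-0.053). Without single arrays, Ccnd1 ranged from -0.25 to 0.052, Cdk6 from -0.18 to 0.026, Cdk6 against Cdk4 from -0.073 to 0.20, Cdkn1b against Cdkn1a from -0.16 to 0.15, and the turnover list's median from -0.074 to 0.057. Signs turned in the same fits for probe sets 1417420_at of Ccnd1 (-0.20 to 0.14), 1417419_at of Ccnd1 (-0.33 to 0.010), 1444323_at of Ccnd3 (-0.097 to 0.013) and 1422440_at of Cdk4 (-0.19 to 0.15). The imprinted list's median, 0.44, was 0.26 with the mean of probe sets, 0.29 without _x_at probe sets, and 0.65 and 0.69 above the 25th percentile and the median gene. The cause of these shifts was not tested.

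Arrays with the same replicate number deviated from their group means with correlations of -0.01, 0.25 and 0.20 over genes. Across numbers, vehicle replicate 2 with DBZ replicate 3 gave -0.18, and vehicle replicate 3 with DBZ replicate 2 gave -0.29. Vehicle replicate 1 was near 0 with DBZ replicates 1, 2 and 3 (-0.009, -0.005 and 0.011). These values do not settle whether the numbers mark pairs, and the main fit took none. With the replicate number as a block 889 genes and 856 probe sets changed, Ccnd2 and Ccnd3 stayed called (limma, adjusted p = 0.043 and 0.033), and 9 of the 12 named calls held.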
